A study of Mus musculus with 6 samples.

Results

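The genes described here are the organic ion, bile acid and ABC transporters of mouse hepatocytes. They were chosen by name as all rows of the count table whose symbol begins with Slco, Slc22a, Slc10a, Abca, Abcb, Abcc, Abcd or Abcg followed by a number. Pseudogenes marked as such in the symbol were left out. The rule gave 93 of 49315 genes: 15 Slco, 25 Slc22a, 7 Slc10a, 16 Abca, 10 Abcb, 10 Abcc, 4 Abcd and 6 Abcg genes. Of these, Slco6b1 is annotated as a transcribed pseudogene in GENCODE M21 and was kept because its name met the rule.

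RNA was sequenced from hepatocytes of male C57BL/6J mice aged 8 weeks (3 mice, per the design text). Each mouse had received, by hydrodynamic injection (a rapid large-volume injection that carries plasmid into hepatocytes), 20 µg of a transposon plasmid (pT3-TTR-miR-206-IRES-GFP) together with 0.8 µg of a Sleeping Beauty transposase plasmid. The Ttr promoter, which is active in hepatocytes, drove miR-206 and GFP from the same transcript. After 4 weeks the livers were perfused and the hepatocytes sorted. The miR-206 group (3 libraries) is the GFP-positive cells, and the control group (3 libraries) is the GFP-negative cells, which by the design text had met the same injection. The sample labels instead call the miR-206 samples overexpressing and the controls wild type with an empty vector, and the sources used here do not settle which of these describes the controls. The labels do not tie libraries to mice, so p-values below measure only the spread between these libraries.

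Total counts were 4157947, 4939030 and 5724329 in the miR-206 libraries and 8966590, 15244017 and 14071679 in the controls. Mitochondrially encoded genes, whose share can reflect RNA quality, took 11.25% to 63.84% of the counts with miR-206 and 9.156% to 35.96% in controls. The share was high in miR-206 libraries 2 (63.84%) and 3 (48.66%) and in control 1 (35.96%, 95% Wilson interval 35.93% to 36%), leaving fewer nuclear counts there, and its part in the results was not tested. The mature miRNA is not captured by these mRNA libraries, and the Mir206 gene had 0 counts in all 6, so the overexpression could not be checked in them. Hepatocyte identity genes such as Alb and Apoa1 were abundant in both groups: the 20 that were measured summed to 22141 to 61480 normalised CPM in miR-206 libraries and 82980 to 207730 in controls. Normalised CPM here means CPM of the TMM-scaled library, where CPM is the count scaled to the library's total and TMM a scaling factor estimated across genes. No marker of another liver cell type was at 0 in any library, though these counts include the background described below. By edgeR as deposited, 10 of 10 Kupffer cell, 8 of 8 endothelial, 2 of 7 stellate and 4 of 6 cholangiocyte markers were lower with miR-206. Their median log2 fold changes were −4.81, −2.42, −0.66 and −2.21. Hepatocyte genes fell too, with 15 of 20 lower, 0 higher and a median of −2.05. Over all tested genes 29.6% were lower and 25.8% higher. With hepatocyte scaling 6, 1, 2 and 2 markers of the other types were lower, while 2 stellate and 1 cholangiocyte marker were higher. Of the hepatocyte genes 6 were then lower and 2 higher, and of all tested genes 3.22% and 55%. The 10 Kupffer cell markers summed to 43.5 to 55.8 normalised CPM with miR-206 against 345 to 1558 in controls, 8 endothelial markers to 115 to 125 against 468 to 518, 7 stellate markers to 84.9 to 104 against 198 to 542, and 6 cholangiocyte markers to 44.9 to 105 against 850 to 3038. Their part in the carrier results was not tested. In bulk RNA, fewer cells of a type and less RNA per cell cannot be told apart.

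A count background also differed between the groups. It was read from 1702 olfactory and vomeronasal receptor genes, which hepatocytes are not known to use, as counts per kilobase of exon. It came to 0.689, 0.673 and 0.705 normalised CPM per kilobase in miR-206 libraries and 0.403, 0.149 and 0.143 in controls. Applied to all nuclear genes, it equals 18.3%, 25.7% and 22.7% of nuclear counts with miR-206 and 6.58%, 1.28% and 1.24% in controls. In miR-206 libraries 3, 7 and 5 of 10 Kupffer cell and 4, 4 and 3 of 8 endothelial markers exceeded 3 times background. So did 3 of 7 stellate markers in each, and 3, 2 and 2 of 6 cholangiocyte markers. In controls all did, except that 5 of 6 cholangiocyte markers did in controls 2 and 3. Control library 1 stood apart from controls 2 and 3, with a correlation of log2 CPM across genes of 0.857 and 0.859 with them against 0.970 between those. Results are therefore also given without it, and with the background subtracted.

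Hepatocytes take bile acids, organic anions and organic cations from sinusoidal blood and secrete bile into the canaliculus. Uptake runs through the sodium-dependent bile acid carrier Slc10a1, the Slco (OATP) carriers and the Slc22a organic ion carriers. Export across the canalicular membrane is driven by ATP-binding cassette pumps for bile salts (Abcb11), phospholipid (Abcb4), conjugated organic anions (Abcc2) and sterols (Abcg5 with Abcg8), while Abcc3, Abcc4 and Abcc6 export from the basolateral side. The nuclear receptors Nr1h4, Nr0b2 and Hnf4a control many of these genes in liver.

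A miRNA recognises targets mainly by its seed, bases 2 to 8 from the 5′ end, paired to the 3′ UTR of an mRNA. The mature miR-206 is shown first (RefSeq, GRCm38.p6, chr1:20679055-20679076, plus strand), with the seed in capitals. Below it stand the strongest seed matches found among the transporters and examples in members that passed the test described later, with the bases that pair with the seed in capitals; a capital A after them marks an 8mer. They were read from each gene's longest 3′ UTR in the annotation (GENCODE M21, GRCm38), 5′ to 3′ along the transcript.
mmu-miR-206-3p: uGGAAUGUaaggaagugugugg
Abca8b (8mer, chr11:109933428-109933450, minus): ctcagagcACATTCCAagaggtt
Slc10a7 (8mer, chr8:78732468-78732490, plus): atgtgttcACATTCCAcagctgg
Slc10a2 (7mer, chr8:5083589-5083611, minus): acctcttaACATTCCtcatcaag
Abcc12 (7mer, chr8:86534289-86534311, minus): ttctgagaACATTCCcagataca

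The motif searched was ACATTCC on the transcript strand. It occurred 9 times in 8 members, 2 of them as 8mers, and other sites lay in Abcc9, Slco1c1, Slco4a1 and again in Slc10a7. Among tested members with an annotated 3′ UTR, 8 of 89 (8.99%) held a site, against 1840 of 16718 other tested coding genes (11%). The members' UTRs were shorter, with a median of 802 bases against 1115. None of the 21 carriers of hepatocyte uptake and export named below held a site in this window. Of the 8 members with a site, 2 fell and 1 rose, with a median log2 fold change of −0.72, and of the 81 without a site 33 fell and 23 rose, with a median of −0.02. A seed match is a description of the sequence and not a measured binding site.

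How far a carrier stood above its library's background set what could be compared. Among the 93 members, 28 reached at least 3 times background in all 3 miR-206 libraries and 52 did so in all 3 controls. At 10 times background the numbers were 4 with miR-206, among them Slc10a1, Slco1b2 and Slc22a18, and 23 in controls. The 8 uptake carriers had a median of 10.3 times background with miR-206 and 221 in controls. The 8 canalicular pumps had a median of 4.14 times background with miR-206 and 80 in controls. These ratios fall either when a transcript is scarcer or when the background is higher, and in miR-206 libraries the background was higher.

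**Figure D1:**
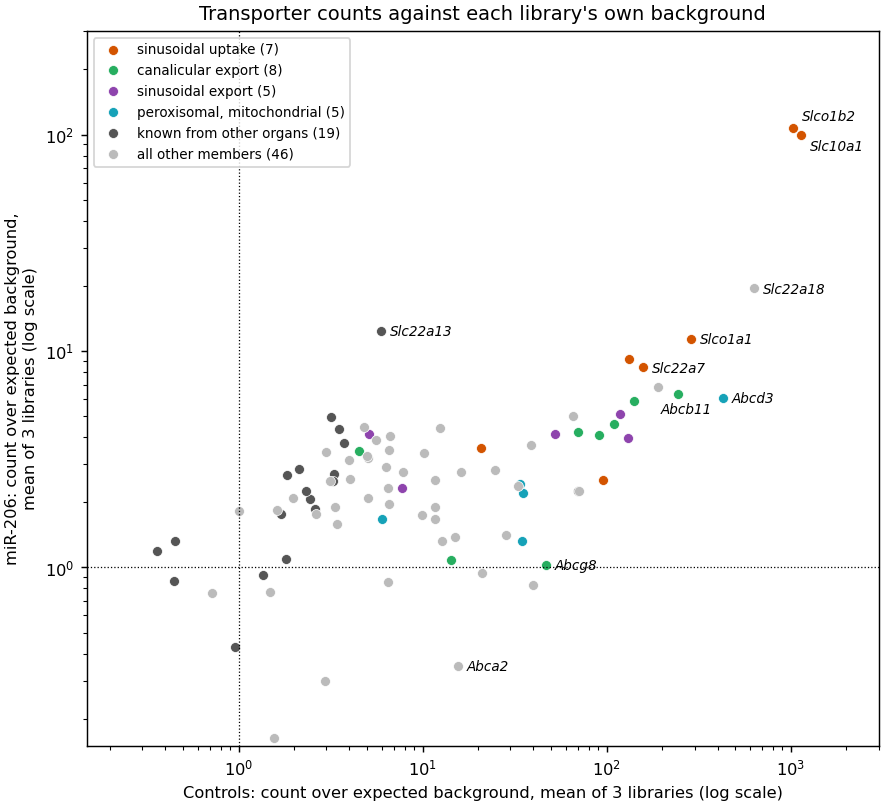
Count of each transporter over the background expected for its exonic length, as the mean of 3 libraries, with miR-206 on the vertical and controls on the horizontal axis (both log scale). Each point is a gene, coloured by role, and dotted lines mark the background itself. Over its list of 8, of which 7 are drawn, uptake has a median of 10.3 times background with miR-206 and 221 in controls, the canalicular pumps of 4.14 and 80, and Abca2 lies under the background line with miR-206.

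Per kilobase of exon, the order of the most abundant carriers was similar at the top and differed below. In miR-206 libraries the highest levels included 74 normalised CPM per kilobase for Slco1b2, 69 for Slc10a1 and 13.4 for Slc22a18. In controls these were also among the highest, with 171 for Slco1b2, 187 for Slc10a1 and 96.2 for Slc22a18. Abcd3, a peroxisomal ABC transporter, ranked 11 with miR-206 (4.19) and 5 in controls (68). The miR-206 levels of genes below the top few include the background of 0.673 to 0.705 per kilobase.

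Of the 93 members, 90 had enough counts to be tested with the edgeR quasi-likelihood test, scaled by TMM and adjusted by Benjamini-Hochberg over 24382 genes. Among them 35 fell and 25 rose in miR-206 hepatocytes at an adjusted p under 0.05. The background of such calls was high: 29.6% of all tested genes were lower, 25.8% higher and 55.4% changed in either direction. The members' median log2 fold change was −0.21, against 0.45 over all genes tested. All 3 miR-206 libraries lay below all 3 controls for 37 members and above them for 31, where 30.3% and 36.7% of all tested genes did so. Without control 1, 42 members fell and 37 rose, where 34.7% of all tested genes were lower and 41.8% higher.

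Direction depended on how the libraries were scaled. On the hepatocyte genes, which sets the summed counts of those 20 genes equal, 1 member fell and 46 rose, where 3.22% of all tested genes were lower and 55% higher and the median of all genes was 2.31. After subtraction of the background, 34 members were kept, of which 5 fell and 6 rose. Of the 6458 genes kept, 20.3% were lower, 18.5% higher and 38.8% changed in either direction. The members' median was then 0.02, against −0.23 over all genes kept. Genes were kept by their mean over all 6 libraries, which favours genes high in controls. As deposited, 5390 of those kept had all 3 miR-206 libraries below all 3 controls, and 60 above. TMM was estimated again on this set, so calls and medians after subtraction are relative to it. With subtraction and hepatocyte scaling together, 5 fell and 0 rose by edgeR, with 9 and 1 at an unadjusted p under 0.05. Of the genes kept, 19% were lower, 2.97% higher and 21.9% changed. DESeq2, run on the deposited counts, called 40 members lower and 23 higher, against 31.3% and 24.5% of all genes. Abcd3 was the single member called lower under all 6 scalings of the deposited counts.

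The uptake carriers included Slco1b2 and Slc10a1, the 2 highest members per kilobase in both groups, but also Slco1a4, which ranked 29 with miR-206 and 32 in controls. As deposited, 6 of 8 were lower with miR-206, with a median log2 fold change of −2.04, but scaled on the hepatocyte genes 0 were called in either direction by edgeR, adjusted or unadjusted, with a median of 0.04. The 2 not called as deposited were Slco1b2 and Slco1a4, and DESeq2 called all 8 lower. After background subtraction 0 of the 8 were lower by edgeR (1 at an unadjusted p under 0.05) and 4 were higher (Slc10a1, Slco1b2, Slco1a4 and Slco2b1), with a median of 0.64. Without control 1 all 8 were lower as deposited, where 34.7% of all tested genes were. With subtraction and hepatocyte scaling together 1 was lower (Slc22a5) and 0 higher by edgeR. At an unadjusted p under 0.05 there was 1 each way. Over all tested genes, 29.6% were lower as deposited, and 3.22% lower and 55% higher with hepatocyte scaling. Of the genes kept after subtraction, 20.3% were lower and 18.5% higher, and with both 19% and 2.97%.

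Slc10a1 is the main sodium-dependent bile acid uptake carrier (chr12:80953183-80968705, GRCm38). Its normalised CPM was 234, 76.8 and 145 in miR-206 libraries and 228, 514 and 495 in controls. The groups overlapped, since miR-206 library 1 lay above control 1. The log2 fold change was −1.44 (SE 0.56, edgeR adjusted p = 0.0481), and leaving out miR-206 library 2 or 3 or control 2 or 3 ended the call, at edgeR adjusted p of 0.147, 0.105, 0.128 and 0.126. Without miR-206 library 1 it was −2.04. After background subtraction the sign turned, at 1.29 (SE 0.40, edgeR adjusted p = 0.0343). With hepatocyte scaling as well it was 0.51 and not called (edgeR adjusted p = 0.246).

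Slco1b2 carries unconjugated bile acids, bilirubin and many drugs (chr6:141629518-141686646). It had 518, 211 and 365 normalised CPM with miR-206 and 474, 1133 and 922 in controls, and the groups again overlapped. The log2 fold change was −1.21 (SE 0.55, edgeR adjusted p = 0.0834) as deposited, with the fall called without control 1 (−1.57) or without miR-206 library 1 (−1.69), and 1.52 (SE 0.37, edgeR adjusted p = 0.0149) after subtraction. Both carriers thus stood higher in the subtracted fit, relative to the other genes kept, and their level remained at least 51.9 times background in every miR-206 library. With subtraction and hepatocyte scaling together neither was called, with Slco1b2 at 0.79 (edgeR adjusted p = 0.0665).

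Slco1a1, an organic anion carrier, had 63.0, 26.9 and 34.6 normalised CPM with miR-206 and 110, 335 and 287 in controls, and did not overlap. Its log2 fold change was −2.55 (SE 0.56, edgeR adjusted p = 0.00413) as deposited and 0.12 (SE 0.36, edgeR adjusted p = 0.804) after subtraction.

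Slco2b1, another organic anion carrier, was 48.1, 28.2 and 37.6 normalised CPM with miR-206 and 68, 162 and 156 in controls. It did not overlap. The log2 difference was −1.76 (SE 0.46, edgeR adjusted p = 0.00947) as deposited, not called without miR-206 library 2 (edgeR adjusted p = 0.0528), and 0.86 (SE 0.26, edgeR adjusted p = 0.0336) after subtraction. Slco1a4 was 18.5, 13.6 and 14.9 normalised CPM with miR-206 and 31, 25.5 and 21.6 in controls. Its change of −0.73 (SE 0.30, edgeR adjusted p = 0.0595) missed the threshold although the groups did not overlap, was called without control 1 (−0.66, edgeR adjusted p = 0.00776), and was 1.39 (SE 0.44, edgeR adjusted p = 0.0364) after subtraction. With subtraction and hepatocyte scaling together Slco2b1 was 0.19 and Slco1a4 0.70, and neither was called (edgeR adjusted p = 0.737 and 0.398). Slco1a1 and Slco1a4 are close paralogs with Slco1a5 and Slco1a6, so the split of reads among them is uncertain.

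Slc22a7, an organic anion carrier of the sinusoidal membrane, had 19.6, 6.73 and 10.3 normalised CPM with miR-206 and 65.7, 50.5 and 68.8 in controls. It fell by 2.33 on the log2 scale (SE 0.43, edgeR adjusted p = 0.00177) as deposited (−3.02 without miR-206 library 1) and was 0.04 (SE 0.50, edgeR adjusted p = 0.952) after subtraction. Slc22a5, the carnitine carrier, showed the largest fall of the 8, at 6.7, 4.55 and 4.84 normalised CPM with miR-206 and 18.9, 65.5 and 55.6 in controls. Its log2 fold change was −3.11 (SE 0.48, edgeR adjusted p = 0.000702) as deposited and −0.99 (SE 0.37, edgeR adjusted p = 0.0645) after subtraction, and it was called lower once the subtracted counts were also scaled on the hepatocyte genes, at −1.66 (edgeR adjusted p = 0.048). It kept 2.2 to 3.17 times background with miR-206, against 15.3 to 143 in controls.

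**Figure D2:**
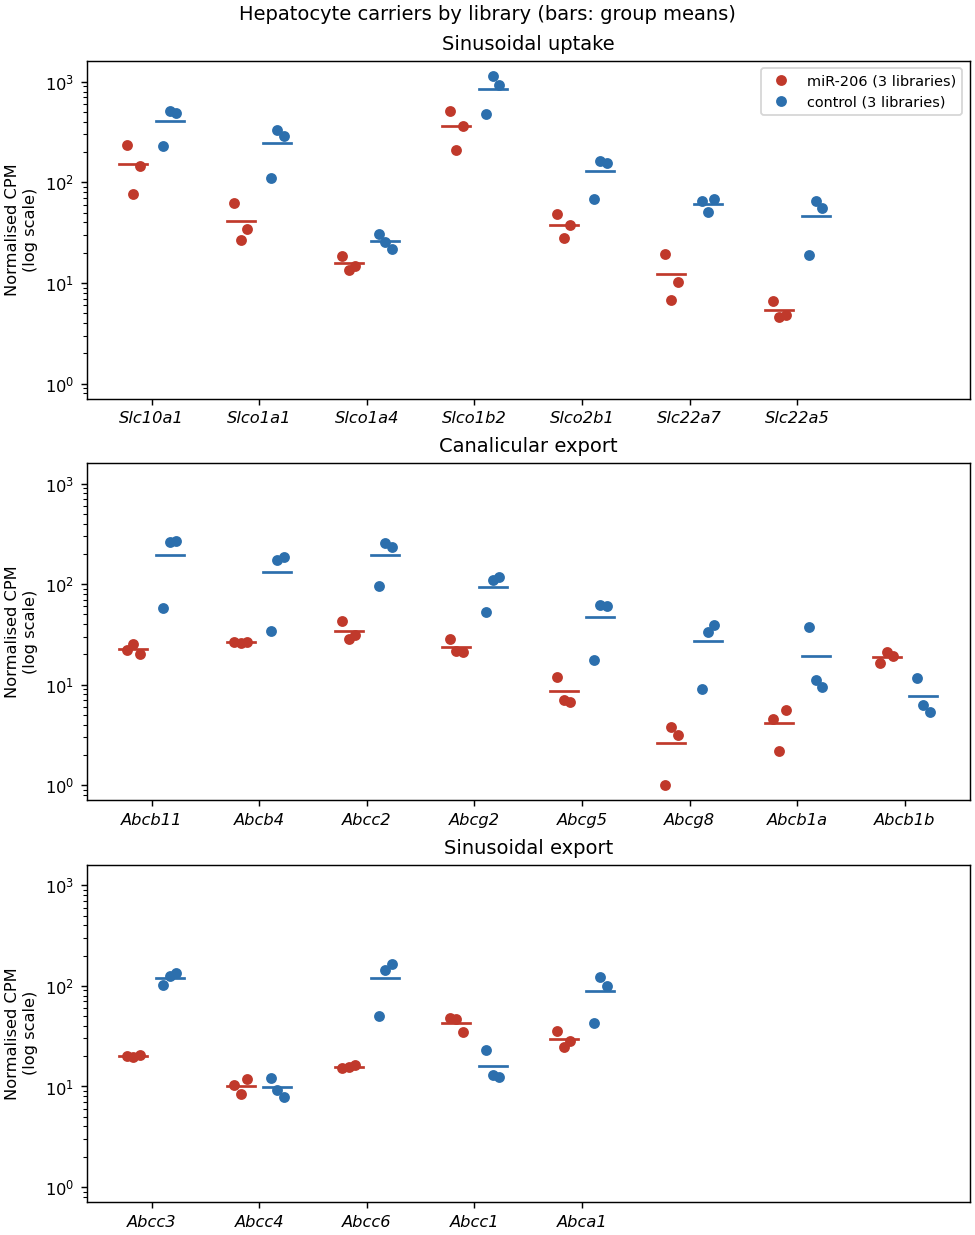
Normalised CPM (log scale) of the hepatocyte carriers in each library, with miR-206 left of control for each gene and bars at the group means. Slc10a1 and Slco1b2 overlap between groups, and the miR-206 libraries of Abcb11 and Abcc3 sit between 20 and 25.3 and between 19.8 and 20.4, below every control.

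The canalicular pumps lay lower with miR-206 in 7 of 8 cases, with a median log2 fold change of −2.38, and Abcb1b rose; scaled on the hepatocyte genes 0 were lower by edgeR, with 0 at an unadjusted p under 0.05, and the median was −0.29. After subtraction 6 could be tested, 0 passed the threshold by edgeR (1 lower at an unadjusted p under 0.05), and the median was 0.04. In miR-206 libraries their counts were between 0.392 and 7.38 times background. Over all tested genes, 29.6% were lower and 25.8% higher as deposited, and 3.22% were lower with hepatocyte scaling. After subtraction 20.3% of the genes kept were lower and 18.5% higher.

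Abcb11, the bile salt export pump (chr2:69238282-69342616), had 22, 25.3 and 20 normalised CPM with miR-206 and 58, 263 and 267 in controls, or 22.4 ± 2.65 against 196 ± 119 (mean ± SD, n = 3 libraries each). It fell by 3.13 on the log2 scale (SE 0.60, edgeR adjusted p = 0.002), and by 0.48 after subtraction (SE 0.35, edgeR adjusted p = 0.289), which did not pass. Abcb4, the phospholipid floppase of bile, was 26.4, 26.2 and 26.4 normalised CPM with miR-206 and 34.1, 175 and 185 in controls. No miR-206 library reached a control, and its log2 fold change was −2.32 (SE 0.59, edgeR adjusted p = 0.00828) as deposited and 0.21 (SE 0.38, edgeR adjusted p = 0.674) after subtraction.

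Abcc2, the canalicular exporter of conjugated bilirubin, had 43.4, 28.7 and 31.4 normalised CPM with miR-206 and 95.9, 255 and 234 in controls. It did not overlap, and its log2 fold change was −2.50 (SE 0.50, edgeR adjusted p = 0.00238) as deposited and 0.03 (SE 0.26, edgeR adjusted p = 0.925) after subtraction. Abcg2, a pump for urate and xenobiotics, was 28.2, 21.5 and 21.2 normalised CPM with miR-206 and 53.4, 109 and 118 in controls. It fell by 1.98 on the log2 scale (SE 0.42, edgeR adjusted p = 0.00329), with 0.41 (SE 0.23, edgeR adjusted p = 0.18) after subtraction.

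Abcg5 and Abcg8 form the canalicular sterol exporter as a dimer. Abcg5 had 11.9, 7.09 and 6.81 normalised CPM with miR-206 and 17.6, 62.7 and 61.2 in controls. The groups did not overlap, and the log2 difference was −2.45 (SE 0.50, edgeR adjusted p = 0.00285) as deposited and 0.05 (SE 0.37, edgeR adjusted p = 0.924) after subtraction. Abcg8 had 1.01, 3.82 and 3.14 normalised CPM with miR-206 and 9.12, 33.5 and 39.4 in controls. These were counts of 8, 21 and 24 at 0.392 to 1.51 times background with miR-206, so no transcript above background could be told apart there. It fell by 3.38 on the log2 scale (SE 0.62, edgeR adjusted p = 0.00154) as deposited.

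Abcb1a and Abcb1b encode the multidrug exporter P-glycoprotein in mouse, and share reads as close paralogs. Abcb1a had 4.55, 2.18 and 5.63 normalised CPM with miR-206, or 0.592 to 1.46 times background, and 37.3, 11.2 and 9.4 in controls. No miR-206 library reached a control. It fell by 2.20 on the log2 scale (SE 0.57, edgeR adjusted p = 0.00918), and by 1.36 without control 1. Abcb1b had 16.6, 21.1 and 19.2 normalised CPM with miR-206 and 11.8, 6.23 and 5.32 in controls, at 3.01 to 3.93 times background with miR-206 and 3.65 to 5.23 in controls. Its rise of 1.29 (SE 0.36, edgeR adjusted p = 0.0128) was not called on leaving out any library but control 1 (edgeR adjusted p 0.0635 to 0.118), and its normalised CPM rose beside a background that was also higher, whose part in the result was not tested.

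The 5 basolateral exporters divided into 3 that fell, 1 that rose and 1 that did not pass, with a median log2 fold change of −1.58 that turned to 0.60 scaled on the hepatocyte genes. After subtraction 3 could be tested: Abcc3 and Abcc6 did not pass and Abca1 was higher. The median then was −0.23, the same as over all genes. With hepatocyte scaling as well 0 of the 3 were called by edgeR. Over all tested genes, 29.6% were lower and 25.8% higher as deposited. Of the genes kept after subtraction, 20.3% were lower and 18.5% higher.

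Abcc3, which exports glucuronides and bile acids to blood, had 20.2, 19.8 and 20.4 normalised CPM with miR-206 and 101, 125 and 134 in controls, or 20.2 ± 0.306 against 120 ± 17 (SD, n = 3 each). It fell by 2.57 on the log2 scale (SE 0.37, edgeR adjusted p = 0.000502) as deposited, and was −0.23 (SE 0.27, edgeR adjusted p = 0.523) after subtraction. Abcc6, the hepatic exporter linked to circulating pyrophosphate, had 15.1, 15.6 and 16.4 normalised CPM with miR-206 and 50.2, 144 and 164 in controls. Its fall of 2.93 (SE 0.50, edgeR adjusted p = 0.00109) became −0.50 (SE 0.26, edgeR adjusted p = 0.152) after subtraction.

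Abca1, the cholesterol and phospholipid exporter that lipidates apolipoprotein A-I, had 35.7, 24.7 and 28.1 normalised CPM with miR-206 and 43.2, 123 and 99 in controls. The groups did not overlap. Its log2 fold change was −1.58 (SE 0.45, edgeR adjusted p = 0.0138), not called without miR-206 library 2 or control 2 (edgeR adjusted p = 0.065 and 0.051), and turned to 0.86 (SE 0.26, edgeR adjusted p = 0.0304) after subtraction. With hepatocyte scaling as well it was 0.23 and not called (edgeR adjusted p = 0.709). Abcc1, a broad organic anion exporter that is low in resting hepatocytes, had 47.9, 46.4 and 34.8 normalised CPM with miR-206 and 23, 13.1 and 12.3 in controls. All miR-206 libraries lay above all controls. It rose by 1.42 on the log2 scale (SE 0.36, edgeR adjusted p = 0.00796), a call that ended without miR-206 library 1 or control 2 or 3 (edgeR adjusted p 0.0528 to 0.0661), at 3.27 to 4.61 times background with miR-206 and 3.78 to 5.82 in controls. Abcc4, which exports bile acids and cyclic nucleotides, was 10.4, 8.37 and 11.9 normalised CPM with miR-206 and 12.2, 9.24 and 7.93 in controls. Its change of 0.07 (SE 0.32, edgeR adjusted p = 0.858) did not pass. It was called higher by library size (1.11, edgeR adjusted p = 0.0441) and with hepatocyte scaling (1.90, edgeR adjusted p = 0.0257), at 1.95 to 2.65 times background with miR-206.

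**Figure D3:**
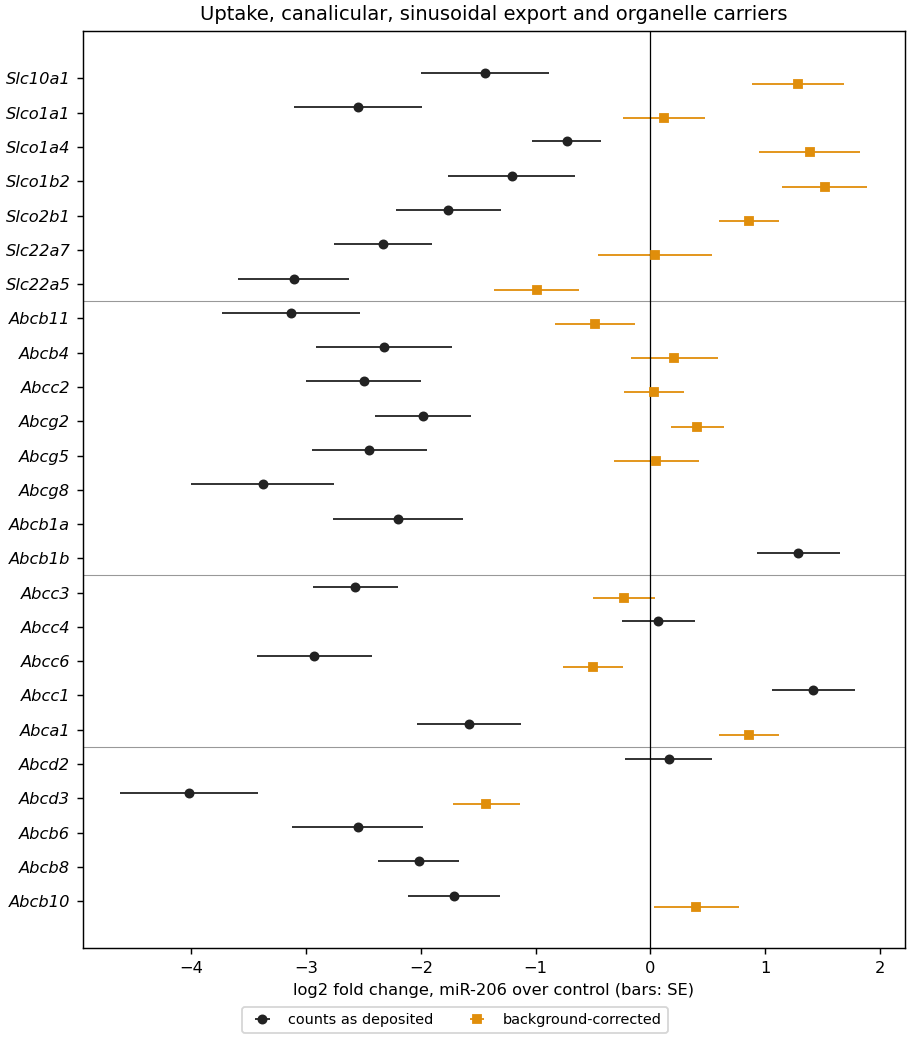
log2 fold change (miR-206 over control, bars SE) of the uptake, canalicular, sinusoidal export and organelle carriers, as deposited with TMM scaling (black) and after background subtraction (orange). The subtracted value is drawn for 17 of 25 genes, those kept by that fit and above 1.5 times background with miR-206. Abcd3 is lower in both fits. Slc10a1, Slco1b2, Slco1a4, Slco2b1 and Abca1 lie below 0 as deposited (Slco1b2 and Slco1a4 not past the test). These carriers were called higher after subtraction, but not with subtraction and hepatocyte scaling together.

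Ratios of carriers within a library do not depend on how libraries are scaled, so 8 pairs were compared. With 3 libraries against 3 the exact permutation test cannot give a p below 0.1, and after adjustment over the 8 pairs the lowest was 0.267, so none passed. The ratio of Slco1a1 to Slco1b2 was 0.122, 0.128 and 0.0948 with miR-206 and 0.231, 0.295 and 0.312 in controls. These did not overlap, with a log2 difference of −1.28 (exact two-sided permutation p = 0.1) and −1.41 after background subtraction.

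The ratio of Abcb4 to Abcb11 was 1.2, 1.04 and 1.32 with miR-206 and 0.588, 0.664 and 0.694 in controls (log2 difference 0.87, exact permutation p = 0.1). This ratio is not free of background, because Abcb4 was at 4 to 4.15 times background with miR-206. With background subtracted its difference was 0.76.

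Slc10a1 to Abcb11, bile acid uptake over bile salt export, was 10.6, 3.03 and 7.2 with miR-206 and 3.93, 1.95 and 1.85 in controls. Control 1 lay above miR-206 library 2, so the groups overlapped (log2 difference 1.34, exact permutation p = 0.2). Groups also overlapped for these pairs: Slco1a4 to Slco1b2 differed by 0.48, Abcc3 to Abcc2 by −0.16, Abcg8 to Abcg5 by −0.99 and Abcb11 to Abcc2 by −0.44 on the log2 scale, with exact permutation p of 0.6, 0.8, 0.3 and 0.3. After subtraction their log2 differences were 0.09, −0.20, −3.24 and −0.41, with exact permutation p of 1, 0.8, 0.1 and 0.3. Slco1a4 to Slco1b2 was 0.99 without control 1. Abcg8 to Abcg5 rests on 8, 21 and 24 Abcg8 counts with miR-206, and as deposited was −0.16 without miR-206 library 1. In that library the Abcg8 count lay below background, so after subtraction only the added 0.5 remained. The subtracted ratios were 0.00627, 0.259 and 0.114 with miR-206 and 0.464, 0.53 and 0.64 in controls. The size of the −3.24 thus depends on that added 0.5.

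Of the summed counts of the 21 hepatocyte carriers, uptake carriers made up 77.8%, 61.5% and 73.1% with miR-206 (70.8 ± 8.4%, SD, n = 3) and 67.2%, 66.8% and 64% in controls (66 ± 1.7%, n = 3). Canalicular pumps made up 12.1%, 20.9% and 14.6% with miR-206 and 19%, 22.9% and 24.7% in controls. Both shares overlapped between groups as deposited. With background subtracted the canalicular share was 10.1%, 18.1% and 11.9% against 18.4%, 22.8% and 24.7%, which did not overlap by a narrow margin. No test was run on these shares.

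**Figure D4:**
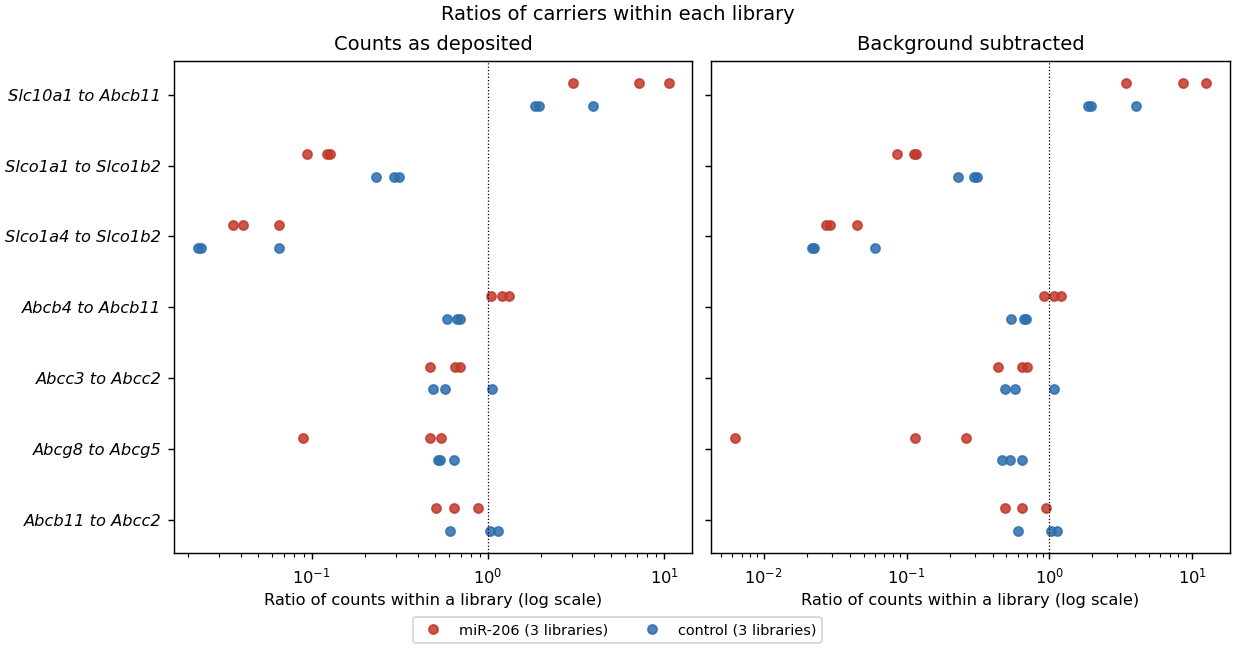
Ratio of counts of 2 carriers within each library (log scale, dotted line at equal counts), as deposited (left) and after background subtraction (right), miR-206 above control for each pair. Slco1a1 to Slco1b2 lies lower in all 3 miR-206 libraries, and Abcb4 to Abcb11 higher, while Slc10a1 to Abcb11 overlaps.

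The largest fall of any member was that of Abcd3 (PMP70), which imports branched and long-chain acyl-CoA and bile acid precursors into peroxisomes (chr3:121758774-121815302). It had 26.3, 26.7 and 29.8 normalised CPM with miR-206 (208, 147 and 228 counts) and 173, 604 and 567 in controls (1309, 5822 and 5008 counts), or 27.6 ± 1.93 against 448 ± 239 (SD, n = 3 each). Every miR-206 library lay far below every control. The log2 fold change was −4.02 (SE 0.60, edgeR adjusted p = 0.000573) and ran from −4.16 to −1.70 over the 6 scalings. It was −1.43 after background subtraction (SE 0.29, edgeR adjusted p = 0.00829) and −1.95 with hepatocyte scaling as well (edgeR adjusted p = 0.0165). Its miR-206 counts stood at 5.79 to 6.42 times background, against 65.1 to 615 in controls, and it held no seed match in its longest 3′ UTR.

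The peroxisomal and mitochondrial ABC genes, Abcd3 among them, were mostly lower: 6 of 7 fell, with a median of −2.55, though with hepatocyte scaling Abcd3 alone was lower and the median was −0.30. After subtraction 3 of the 6 that could be tested were lower, Abcd3 among them, with a median of −1.41 against −0.23 over all genes. Abcb6, Abcb8 and Abcb10 fell by 2.55, 2.02 and 1.71, and did not pass after subtraction. Abcd2 was 0.16 and not called. Over all tested genes, 29.6% were lower as deposited and 3.22% with hepatocyte scaling, and 20.3% of the genes kept were lower after subtraction.

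Among the remaining members with the largest falls, Abca2, a lysosomal lipid transporter, had 1.9, 2.55 and 1.57 normalised CPM with miR-206 and 19.7, 23.6 and 25.7 in controls. It fell by 3.53 on the log2 scale (SE 0.35, edgeR adjusted p = 0.000271), and its 12 to 15 miR-206 counts were 0.267 to 0.454 times background. Slc10a5, a bile acid carrier family member of unsettled substrate, had 2.91, 2.36 and 1.44 with miR-206 and 10.8, 34.5 and 29.7 in controls (−3.48, SE 0.50, edgeR adjusted p = 0.000491). Slc10a2, the ileal bile acid carrier, had 8.48, 5.46 and 5.37 with miR-206 and 28.9, 65.6 and 51.2 in controls (−2.91, SE 0.41, edgeR adjusted p = 0.000456). None of these overlapped. After subtraction Slc10a2 was −0.98 (SE 0.37, edgeR adjusted p = 0.0639), and with hepatocyte scaling as well it was called lower, at −1.70 (edgeR adjusted p = 0.0419). Its miR-206 counts were only 1.83 to 2.96 times background, so the size of these folds is uncertain. Slc10a5 was called lower after subtraction (edgeR adjusted p = 0.00668), with no fold given because its miR-206 counts were 0.521 to 1.08 times background.

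Carriers known mainly from kidney, gut, testis, brain, eye, skin or islet moved the other way as a list, with 14 of 17 tested higher and 1 lower (Slc10a2), and a median of 1.88, beside 25.8% higher and a median of 0.45 over all genes. Of the receptor genes used as background, 372 of 749 rose and 1 fell in the same fit, with a median of 1.68. Of the 25 members that rose, 24 were below 10 times background in all 3 miR-206 libraries. The largest rises below are therefore given with their counts.

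Slc10a4, known from neurons, had 17, 8 and 12 counts with miR-206 and 0, 1 and 2 in controls, a ratio of 15.3 per scaled library (95% exact interval 4.83 to 77.4, counting error only). Its edgeR adjusted p was 0.00573, and 0.0516 without miR-206 library 1. These counts were 1.48, 1.03 and 1.06 times background with miR-206, so no transcript above background could be told apart there. Slc22a13, a renal carrier of nicotinate and urate, had 113, 126 and 105 counts with miR-206 and 3, 28 and 19 in controls. It rose by 3.18 on the log2 scale (SE 0.56, edgeR adjusted p = 0.00125), with no overlap, and reached 10.4, 17 and 9.75 times background with miR-206 against 0.492, 9.75 and 7.54 in controls. It is the member that rose and lay highest above background.

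Slco6c1, a testis organic anion carrier, had 28, 13 and 14 counts with miR-206 and 5, 2 and 1 in controls (log2 fold change 2.97, SE 0.78, edgeR adjusted p = 0.00964), and was not called without miR-206 library 1 or 3 (edgeR adjusted p = 0.0979 and 0.0505). Slco6b1 had 12, 9 and 10 counts with miR-206 and 1, 2 and 2 in controls (2.86, SE 0.74, edgeR adjusted p = 0.00891), and was not called without any of the miR-206 libraries in turn (edgeR adjusted p 0.0649 to 0.0677). Slc22a26 had 29, 25 and 22 counts with miR-206 and 4, 4 and 6 in controls (2.74, SE 0.58, edgeR adjusted p = 0.0034). All 3 were at most 2.29 times background in miR-206 libraries and at most 1.62 times in controls. The part of the background in these rises was not tested.

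Slc22a8, the renal organic anion exchanger, had 11.1, 14.4 and 14.7 normalised CPM with miR-206 and 1.45, 2.49 and 2.38 in controls (log2 fold change 2.65, SE 0.38, edgeR adjusted p = 0.000478). It was at 4.13 to 5.46 times background with miR-206 and 0.923 to 4.28 in controls. Abca4, the retinal photoreceptor flippase, had 27.5, 20.7 and 23 with miR-206 and 4.49, 6.12 and 3.51 in controls (2.33, SE 0.33, edgeR adjusted p = 0.000463), at 2.56 to 3.31 times background with miR-206. Neither overlapped between groups.

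The members with an 8mer for miR-206 did not pass the edgeR test as deposited with TMM, but did under some other settings. Abca8b, whose site is printed above, had 15.7, 13.8 and 13.5 normalised CPM with miR-206 and 12, 42.8 and 33.5 in controls, overlapping at control 1 (log2 fold change −1.04, SE 0.43, edgeR adjusted p = 0.0609), and was called lower without that library (−1.49), by DESeq2 (−1.18, adjusted p = 0.0362), with RLE factors (−1.18, edgeR adjusted p = 0.0483) and with no filter (−1.33, edgeR adjusted p = 0.0185). After subtraction it was 1.28 (SE 0.34, edgeR adjusted p = 0.0204), though its miR-206 counts were only 2.58 to 3.07 times background. With hepatocyte scaling as well it was 0.73 and not called (edgeR adjusted p = 0.328). Slc10a7, with an 8mer and a 7mer 23 bases apart, had 15.9, 15.5 and 14.3 with miR-206 and 13.7, 8.61 and 13 in controls (0.37, SE 0.30, edgeR adjusted p = 0.303). It was called higher with upper-quartile factors (1.18, edgeR adjusted p = 0.0127), by library size (1.42, edgeR adjusted p = 0.00952) and with hepatocyte scaling (2.29, edgeR adjusted p = 0.00562).

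The remaining 38 members stood in no functional list. Of the 37 tested, 8 fell and 9 rose, where 29.6% of all tested genes were lower and 25.8% higher. Slc22a18, an orphan cation carrier, was among the most abundant per kilobase in both groups. It had 30.1, 18.9 and 19.4 normalised CPM with miR-206 and 37.3, 234 and 219 in controls, a log2 difference of −2.84 (SE 0.65, edgeR adjusted p = 0.005), and −0.00 after subtraction (SE 0.42, edgeR adjusted p = 0.996). It is named here after its values were seen.

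Bile formation also uses genes outside the name rule, and 24 of them were listed: conjugation enzymes, flippase subunits, water and anion channels, receptors and transcription factors. Of the 22 tested, 18 fell and 0 rose by edgeR, where 29.6% of all tested genes were lower and 25.8% higher. At an unadjusted p under 0.05, or by DESeq2, 0 were higher. Their median was −2.53, but −0.35 with hepatocyte scaling. With that scaling 2 fell and 4 rose, beside 3.22% lower and 55% higher over all tested genes. After subtraction 4 fell and 2 rose of 18, with a median of −0.19, where 20.3% of the genes kept were lower and 18.5% higher. Nr0b2, the repressor induced by the bile acid receptor, had 6.2, 5.09 and 4.32 normalised CPM with miR-206 and 39.8, 51 and 55.2 in controls (−3.22, SE 0.34, edgeR adjusted p = 0.000271), and −0.80 after subtraction (SE 0.33, edgeR adjusted p = 0.0841). Nr1h4, the bile acid receptor FXR, had 10.1, 10.5 and 8.77 with miR-206 and 46, 131 and 112 in controls (−3.29, SE 0.47, edgeR adjusted p = 0.000488), and −0.75 after subtraction (SE 0.24, edgeR adjusted p = 0.0405). Neither overlapped between the groups. With subtraction and hepatocyte scaling together Nr0b2 was −1.43 and Nr1h4 −1.27, and neither was called (edgeR adjusted p = 0.0864 and 0.0956).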

How the data were processed

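RNA was measured in 6 bulk libraries of sorted hepatocytes, made with the SMARTER mRNA-Seq kit from micro-column total RNA, per the labels' protocols. The authors deposited raw counts per Ensembl gene, with no normalisation in the values. The submitters' processing notes name GRCm 38 and mm 10. For the aligner, the counter and strandedness: not given in the sources used here. Counts of paralogs and overlapping genes are thus uncertain.

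Counts were filtered (filterByExpr, minimum count 10), scaled by TMM and tested with edgeR 4.0.16 (R 4.3.3, quasi-likelihood, robust, group as the single term) at an adjusted p under 0.05 over all genes. DESeq2 1.42.0 was an alternative. The edgeR step was tested on simulated data. For the subtracted fit, receptor counts per exonic kilobase times exonic length were subtracted, and genes averaging at least 10 times that background were kept. Pair ratios had 0.5 added to each count. Members, lists and tests were chosen with earlier results of these data known. Genes named in full are the uptake and export lists, the 5 largest falls and 5 largest rises of other members past the test whose groups did not overlap, members with an 8mer, and the 3 of smallest p in the organelle, other-organ and bile formation lists. Annotation was GENCODE M21, which matched 49056 identifiers. A few genes that these rules select are not reported here, though the counts over lists include them.

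Libraries of the same number were not treated as pairs, because the labels do not tie libraries to mice. Their deviations from group means correlated at 0.014, 0.026 and −0.006, which cannot show whether they share a mouse.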

Additional observations from a re-analysis of the deposited data

How the results depend on the processing

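The count of members lower with miR-206 was 35 as reported, 19 scaled by library size alone, 1 scaled on hepatocyte genes, 5 with background subtracted and 5 with subtraction and hepatocyte scaling together, an alternative chosen after seeing the data. It ran from 31 to 42 when single libraries were left out. The count of members higher was 25 as reported, 38 with upper-quartile factors, 41 by library size, 46 by hepatocyte scaling, 6 with subtraction and 0 by edgeR with both (1 at an unadjusted p under 0.05). It ran from 6 to 37 with single libraries left out, at 6, 12 and 8 without miR-206 library 1, 2 or 3, 15 and 12 without control 2 or 3, and 37 without control 1. Calls over all genes moved too. Of 24382 genes, 7213 were lower and 6289 higher as reported, and 3774 and 11642 by library size. They were 4812 and 10629 with upper-quartile factors. Without miR-206 library 1, 2 or 3, 2109 of 26347, 2966 of 27853 and 1916 of 27124 genes were higher. Without control 1, 2 or 3, 10674 of 25524, 4271 of 25644 and 4185 of 25658 were. Uptake carriers lower were 6, and 1, 0, 0 and 1 under library size, hepatocyte scaling, subtraction and both, with 4 to 8 on leaving out libraries. Export pumps lower were 10, and 6, 0, 0 and 0 in the same order, with 9 to 10 on leaving out libraries.

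Among the genes named in full, signs turned for those below (log2 fold change). Members outside that set are not listed, and some of them turned too. Abcb10, for example, was −1.71 as deposited, 0.40 with subtraction and 0.54 with hepatocyte scaling. With subtraction: Abcc2 0.03, Slc22a7 0.04, Abcg5 0.05, Slco1a1 0.12, Abcb4 0.21, Abcg2 0.41, Abca1 0.86, Slco2b1 0.86, Abca8b 1.28, Slc10a1 1.29, Slco1a4 1.39 and Slco1b2 1.52. With subtraction and hepatocyte scaling: Slco2b1 0.19, Abca1 0.23, Slc10a1 0.51, Slco1a4 0.70, Abca8b 0.73 and Slco1b2 0.79. With hepatocyte scaling: Abcb4 0.08, Abcg2 0.17, Slco2b1 0.35, Slc10a1 0.52, Abca1 0.60, Slco1b2 0.80, Slco1a4 1.11 and Abca8b 1.24. By library size: Slco1b2 0.03, Abca8b 0.13 and Slco1a4 0.35. By upper-quartile factors: Slco1a4 0.08. Abcc4 was 0.07 as reported, −0.04 with DESeq2, −0.04 with RLE factors, −0.15 with no filter and −0.00 without mitochondrial genes, and ran from −0.29 to 0.18 with libraries left out. It was called higher by library size (1.11) and with hepatocyte scaling (1.90). The pair Abcc3 to Abcc2 ran from −0.39 to 0.17, at 0.01 without miR-206 library 1 and 0.17 without control 1. The cause was not tested.

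With the replicate number as a block, 34 members were lower and 26 higher, 5 uptake carriers and 10 export pumps were lower, and Slc10a1 lost its call (adjusted p 0.089 by edgeR). In that fit 6697 of 24382 genes were lower and 5362 higher. Whether libraries of the same number come from the same mouse is not known.

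The miR-206 libraries were shallower and carried more background, so transcripts under about 3 times background there could not be told from it.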
